A study of Rattus norvegicus with 10 samples.

Results

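Collagen genes and the genes of collagen-processing enzymes were compared between kidneys of growth-restricted rat fetuses and kidneys of normal fetuses. They were taken by gene symbol alone, as all probe sets annotated to a single collagen chain, prolyl or lysyl hydroxylase, lysyl oxidase, the chaperone Serpinh1 or the enhancer Pcolce. This gave 55 of the 15923 probe sets of the array, for 41 of the 10411 named genes, of which 29 encode collagen chains and 12 encode enzymes or helpers. Total RNA of 10 kidney samples, taken on day 22 of gestation, had been measured on 1 Affymetrix array each. The normal group (replicates 1 to 5) came from mothers kept on a regular diet. The hyperinsulinemic group (replicates 6 to 10) came from Wistar mothers of 200 to 280 g, also on a normal diet, that carried a 2 mm segment of a sustained-release insulin implant under the skin a week before mating and once more a week after it; these groups share the diet and the day of gestation. The labels give no strain for the normal mothers, and no litter, fetal sex or pooling for any sample. With no separate animals named, each p-value reflects sample-to-sample spread alone, part of which may be technical.

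Collagens are matrix proteins made of chains wound into a helix. Fibrillar types I, III and V form the fibres of the kidney interstitium, type IV forms the network of basement membranes around tubules and glomerular capillaries, and other types link or anchor these structures. Before secretion, hydroxylases modify proline and lysine residues of the chains, and the chaperone Serpinh1 (HSP47) binds the folded helix in the endoplasmic reticulum. Outside the cell, propeptides are cut off and lysyl oxidases start the cross-links between molecules.

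The signals used here are linear MAS5 intensities that had been scaled to a common target, with a trimmed mean of 250 on every array. The number of arrays limits the precision, and other sources of spread were not separated. The defining kidney genes were present, with 9 of 10 listed markers on the array and all 9 tested. Median correlations of an array with the others ran from 0.981 (hyperinsulinemic replicate 6) to 0.988. That array also had the highest signal of the liver gene Alb, at 1742, against 42.9 to 842 on the other arrays. Normal replicate 1 stood apart in adrenal cortex genes: the sum of 5 marker genes reached 914 there, and the sum on the hyperinsulinemic arrays ran from 95.4 to 165. The X-inactivation transcript Xist ran from 0.8 to 2 in the normal group and from 42.4 to 70.5 in the hyperinsulinemic group, so treatment of the mother and X-chromosome content of the samples cannot be told apart.

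Promoter sequences were taken from RefSeq (GRCr8) for 34 of the 41 genes, as the 250 bases before the annotated start. The stretch shown first is shared by Col4a1 and Col4a2, which encode the chains of the common type IV trimer and are transcribed away from each other. Only 76 bases, chr16:84885521-84885596, separate their starts; they are shown because both genes could be measured and their signals are compared further on. They are printed on the plus strand, in the direction of Col4a1, with a GC box (GGGCGG or its reverse complement CCGCCC) in capitals. For contrast, the second stretch holds the outermost 100 bases of the window of Col1a2, chr4:33518307-33518406 on the plus strand, the type I chain gene whose probe sets are described below. Capitals mark a CCAAT box, read here on the opposite strand as ATTGG, and a TATA box (TATAAA), which start 221 and 170 bases before the annotated start.
Col4a1-Col4a2: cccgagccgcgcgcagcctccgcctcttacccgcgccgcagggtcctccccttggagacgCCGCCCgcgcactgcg
Col1a2: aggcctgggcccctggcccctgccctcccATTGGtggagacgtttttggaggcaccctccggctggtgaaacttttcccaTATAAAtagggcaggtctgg
The stretch between the type IV genes was 78.9% G or C and held 1 GC box and no CCAAT box. The 250-base windows of Col4a1 and Col4a2 each held 1 CCAAT box outside this stretch, 170 and 105 bases before their starts. On either strand, a GC box was present in 20 of the 34 promoter windows (58.8%) and in 30.5% of all 33469 windows of this length. CCAAT (or ATTGG) was present in 7 of the 34 (20.6%, against 34% of all windows), and TATAAA (or TTTATA) in 2, those of Col1a2 and Col10a1 (5.88%, against 12.9%). The core letters of the hypoxia element (ACGTG or CACGT) were present in 5 (14.7%, against 16.6%). The 34 genes gave 1 window each, while all windows were counted without sorting by type of gene or repeats of a gene. The shares are therefore of unlike sets. These matches describe the letters only.

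No collagen or processing gene passed the test between the groups, although most signals were somewhat lower in the hyperinsulinemic kidneys. Testing was limited to probe sets at or above an array's 40th percentile on 5 or more of the 10 arrays, which kept 40 of the 55, for 32 genes. All 40 were above this level on all 10 arrays, so none was tested through 1 group alone. Of these 40, 0 passed in limma over all 9601 tested probe sets (adjusted p below 0.05), where the background was 0.0104%. An unadjusted p under 0.05 was reached by 5 of the 40 probe sets, all lower, against 5.36% of all probe sets in either direction, 2.93% lower and 2.44% higher. With each gene represented by its brightest probe set, 3 of 32 genes reached it (Lox, Col14a1 and Col1a2), all lower, against 5.17% of all genes, 2.77% lower and 2.41% higher. No tested probe set among the 40 had groups that did not overlap, against 1.04% of all and 0.510% lower. Of the 32 genes, 25 had a lower mean log2(signal + 16) in the hyperinsulinemic group, where 48.5% of all genes did. All counts of lower or higher means refer to this log2 scale; for Col9a1, counted as lower, the mean linear signal was 171 in the normal and 173 in the hyperinsulinemic group. The median log2 difference of the 32 genes was -0.06, and that of all genes was 0.0029. Without normal replicate 1, 26 of 32 genes had lower means, with a median of -0.08. All log2 differences are hyperinsulinemic minus normal, with standard errors after ±, while signals carry SDs (n = 5 each).

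**Figure D1:**
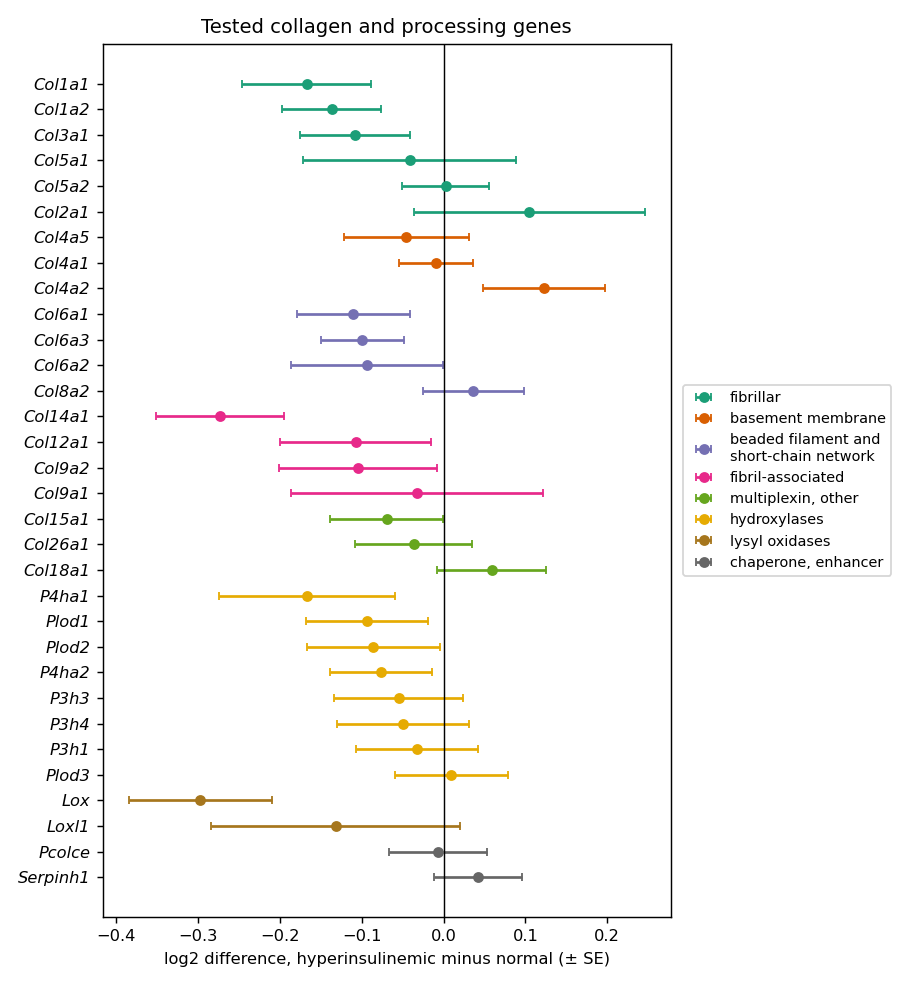
Log2 difference of hyperinsulinemic minus normal arrays (x axis, log2(signal + 16), bars are standard errors, n = 5 arrays per group) for the 32 tested genes, each by its brightest probe set and coloured by class. Points of 25 genes lie left of 0; Lox and Col14a1 lie farthest left, and Col4a2 and Col2a1 farthest right.

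Of the 6 tested fibrillar genes 4 had lower means in the hyperinsulinemic group, with a median log2 difference of -0.07, and the chains of types I and III had the more negative differences. Col1a1 encodes the main chain of type I collagen. Its brightest probe set read 1756, 2047, 1678, 2148 and 1966 on normal replicates 1 to 5 and 1890, 1514, 1561, 1747 and 1817 on hyperinsulinemic replicates 6 to 10. All 5 hyperinsulinemic arrays lay below the normal median of 1966, and 2 lay below the lowest normal array. The log2 difference was -0.17 ± 0.08 (limma, adjusted p = 0.931). A further Col1a1 probe set, designed on the same sequence record and so not independent of it, read 1594, 1683, 1518, 1675 and 1617 on normal arrays and 1309, 1281, 1384, 1562 and 1459 on hyperinsulinemic arrays. There 4 of 5 hyperinsulinemic arrays were below the lowest normal one, and the difference was -0.21 ± 0.06 (limma, adjusted p = 0.676).

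Col1a2 encodes the other type I chain. Its signals were 2412, 2529, 2233, 2736 and 2378 in the normal group and 2427, 2201, 2083, 2251 and 2196 in the hyperinsulinemic group, 3 of the latter being below every normal array. The difference was -0.14 ± 0.06 (limma, adjusted p = 0.918), and -0.12 ± 0.06 for its other probe set, again of the same sequence record. Col3a1, the type III chain that is laid down in the same fibres, read 2570, 2738, 2483, 3186 and 2679 against 2714, 2523, 2329, 2463 and 2606. The groups overlapped widely, with a difference of -0.11 ± 0.07, which was -0.05 without normal replicate 4, the array with the highest Col3a1. Col5a2 and Col5a1, type V chains that act in starting fibrils, differed by 0.00 ± 0.05 and -0.04 ± 0.13. The interval of Col5a2 ran from -0.11 to 0.12 (95% confidence, limma). The other tested probe sets of Col5a2 and Col5a1 gave -0.05 ± 0.05 and 0.01 ± 0.06, with the opposite sign in each case.

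Within an array, the type III signal did not separate from type I beyond the spread of the arrays. The log2 ratio of Col3a1 to Col1a1 was higher by 0.06 in the hyperinsulinemic group (exact two-sided permutation test, p = 0.310; adjusted p = 0.429 by Benjamini-Hochberg over 2 ratios). It was 0.018 without hyperinsulinemic replicate 7 and 0.037 without normal replicate 2. Arrays with more Col1a1 also had more of its fibre partners. After the mean of each group was subtracted, Col1a1 and Col1a2 had Pearson's r = 0.81 and Spearman's rho = 0.79 over 10 arrays (exact within-group permutation p = 0.00681 and 0.0149, adjusted over 5 pairs 0.0170 and 0.0372). Col1a1 and Col3a1 had r = 0.81 and rho = 0.87 (exact permutation p = 0.00549 and 0.005, adjusted 0.0170 and 0.025). Without the 2 arrays farthest from the median of Col1a1, normal replicate 3 and hyperinsulinemic replicate 7, r was 0.81 and 0.88. Points of such a pair share an array, so anything that moves bright signals of 1 array together enters r.

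**Figure D2:**
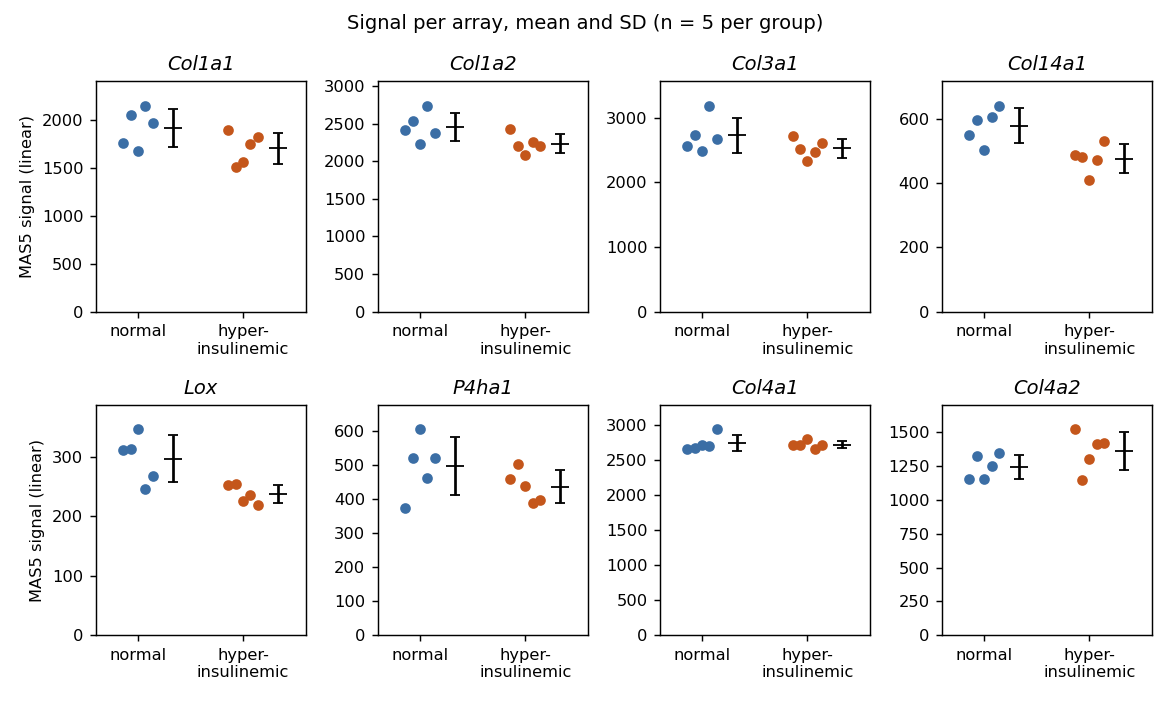
MAS5 signal (linear, y axis from 0) of 8 genes on each array, in replicate order from left to right within a group, with the mean and SD of the 5 arrays beside them. The 5 hyperinsulinemic arrays of Col14a1 and Lox sit low with overlap of the groups, and Col4a1 sits at one level in both groups.

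Among the fibril-associated collagens, which sit on the surface of fibrils, all 4 tested genes had lower means on the log2 scale, with a median of -0.11, and Col14a1 had the most negative difference. Col14a1 encodes type XIV collagen, a regulator of fibril growth. Its signals were 548.7, 595.4, 501.4, 605.8 and 640 in the normal group and 487.6, 481, 407.8, 472 and 530.1 in the hyperinsulinemic group. Hyperinsulinemic replicate 10 was the 1 array of its group above the lowest normal array. The difference was -0.27 ± 0.08, a ratio of 0.827 (limma, adjusted p = 0.676). A dimmer probe set of a different sequence record read 155.4, 168.8, 167.5, 172.5 and 135.5 against 123.7, 123.3, 101.4, 139.6 and 125.8, with a difference of -0.34 ± 0.09 (limma, adjusted p = 0.628). There again 4 of 5 hyperinsulinemic arrays were below all normal ones, and the array that was not was replicate 9. Col12a1, a relative found in dense connective tissue, differed by -0.11 ± 0.09 and, on its other probe set, by -0.12 ± 0.10. Without normal replicate 1, its lowest normal array, the first of these was -0.19, and without normal replicate 5 it was -0.05. On that probe set the signals were 514.6, 692.3, 637.2, 696.6 and 785.8 against 600.9, 687.2, 588.1, 589.5 and 592.8, and every hyperinsulinemic array lay within the normal range.

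The cartilage-type collagens were measured with more scatter. Col9a2 and Col9a1 differed by -0.10 ± 0.10 and -0.03 ± 0.15. Col9a1 read 272.9 on hyperinsulinemic replicate 6 and 127.5 to 172.9 on the other arrays of that group, while the normal group ran from 152 to 183. Col2a1 stood at 198 ± 28.5 and 217 ± 54.9 on its tested probe set, and its other probe set, of the same record, was below the filter. Markers of cartilage were low: 4 of 6 were on the array, 0 were tested and 0 were at 0, and their summed signal was 178 to 207 in the normal group and 169 to 214 in the hyperinsulinemic group.

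The chains of type VI collagen, which forms beaded filaments between cells and fibres, all had lower means on their tested probe sets. None passed the test. Col6a1, Col6a2 and Col6a3 differed by -0.11 ± 0.07, -0.09 ± 0.09 and -0.10 ± 0.05. A further Col6a2 probe set, below the filter, was not lower, at 31.2 ± 8.98 in the normal and 35.9 ± 16.8 in the hyperinsulinemic group. For Col6a3 the signals were 1204, 1185, 1271, 1122 and 1138 in the normal group and 1080, 1123, 1097, 1153 and 1065 in the hyperinsulinemic group. All 5 hyperinsulinemic arrays were below the normal median of 1185, and 3 were below every normal array (limma, adjusted p = 0.934). Col6a1 read 845.2, 943.9, 917.4, 906 and 898.6 against 816.1, 802.5, 722.2, 892 and 956.7, so that replicate 8 was lowest and replicate 10 highest of all. Its difference was -0.06 without replicate 8. Col8a2, a short-chain collagen of the type VIII network, stood at 570 ± 44.4 and 584 ± 21.3.

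Type IV collagen, the scaffold of the basement membrane, had 1 higher and 2 lower means among 3 tested genes, with a median of -0.01. For Col4a1 the signals were 2666, 2677, 2722, 2701 and 2938 in the normal group and 2714, 2710, 2801, 2664 and 2720 in the hyperinsulinemic group. The difference was -0.01 ± 0.05, with an interval from -0.11 to 0.09 (95%, limma), and 0.04 ± 0.06 on a further probe set of another record. Its partner Col4a2 read 1152, 1320, 1156, 1245 and 1341 against 1518, 1145, 1299, 1410 and 1416. There 3 hyperinsulinemic arrays were above every normal array and 1 below, for a difference of 0.12 ± 0.07 (limma, adjusted p = 0.953), which was 0.081 without hyperinsulinemic replicate 6. Although only the short stretch printed above separates their starts, the pair did not vary together detectably over these arrays, with r = 0.21 and rho = 0.32 after group means were subtracted (exact permutation p = 0.561 and 0.361, adjusted over 5 pairs 0.561 and 0.361). Without the 2 arrays farthest from the median of Col4a1, r was -0.01. Within a group Col4a1 varied little, by a coefficient of variation of 4.10% and 1.82%, which leaves little range for a correlation. Col4a5, a chain of the mature glomerular basement membrane whose gene is on the X chromosome, read 1007, 955.2, 982.5, 844.7 and 839.2 against 797.8, 1033, 920.5, 912 and 824.1. The groups overlapped almost wholly, with a difference of -0.05 ± 0.08. That difference was nearer 0 without hyperinsulinemic replicate 6 (-0.0053) or 10 (-0.017) and normal replicate 1 (-0.015) or 3 (-0.023). It was farther from 0 without hyperinsulinemic replicate 7 (-0.097) and normal replicate 4 (-0.077) or 5 (-0.079). Col4a4, its partner there, was below the filter at 42.7 ± 6.27 and 38.0 ± 3.47, and Col4a3 was not analysed here.

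The remaining collagens had differences of both signs. Col18a1, whose C-terminal fragment is endostatin, read 1228, 1413, 1404, 1490 and 1426 against 1522, 1560, 1285, 1383 and 1508 on its brightest probe set. There 3 hyperinsulinemic arrays were above every normal one, and the difference was 0.06 ± 0.07, with 0.12 ± 0.06 on the other probe set. The former was 0.015 without normal replicate 1, 0.032 without hyperinsulinemic replicate 7 and 0.10 without hyperinsulinemic replicate 8. The related Col15a1 read 497.9, 507.5, 493.9, 539.3 and 602.5 against 483.2, 479.8, 475.2, 508.1 and 565. Of its hyperinsulinemic arrays 3 were below every normal one, and the difference was -0.07 ± 0.07, which was -0.02 without normal replicate 5 and -0.11 without hyperinsulinemic replicate 10. Col26a1 differed by -0.04 ± 0.07.

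Of the 8 genes with several tested probe sets, 5 gave the same sign on each (Col1a1, Col1a2, Col12a1, Col14a1 and Col18a1) and 3 did not (Col4a1, Col5a1 and Col5a2). In the normal group the coefficient of variation of a gene's signal ran from 1.52% (Col5a2) to 21.1% (Loxl1), and in the hyperinsulinemic group from 1.82% (Col4a1) to 34.2% (Col9a1). The genes without a tested probe set were Col10a1, Col11a1, Col11a2, Col19a1, Col27a1, Col4a4, Col5a3, Col7a1 and Col8a1. The group means of the 15 untested probe sets did not exceed 75.3.

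Of the 8 genes of the hydroxylase families, 7 had lower means in the hyperinsulinemic group, with a median log2 difference of -0.07. Of these genes, 0 reached an unadjusted p under 0.05. P4ha1, the main catalytic subunit of collagen prolyl 4-hydroxylase, read 375.4, 521.5, 605.8, 463.5 and 521.4 in the normal group and 460, 504.5, 438.2, 388.1 and 399 in the hyperinsulinemic group. Each hyperinsulinemic array was below the normal median of 521.4, but none was below normal replicate 1. The difference of -0.17 ± 0.11 was -0.26 without that array and -0.09 without normal replicate 3. P4ha2, its isoform, read 291.2, 285, 288.4, 295 and 305.3 against 306.2, 283.8, 264.9, 256.2 and 276.2. Hyperinsulinemic replicate 6 was the highest of all 10 arrays and the other 4 of its group were the lowest, and the difference was -0.08 ± 0.06.

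Plod2, the lysyl hydroxylase of the telopeptides and thereby of stable cross-links, read 660.2, 601.5, 691.2, 617.4 and 561.5 against 588.9, 714.1, 579.4, 540.2 and 532.1, a difference of -0.09 ± 0.08. Hyperinsulinemic replicate 7 was the highest of all arrays there, and without it the difference was -0.15. It was -0.050, -0.057 and -0.051 without normal replicate 3 and hyperinsulinemic replicates 9 and 10. Plod1 and Plod3, which hydroxylate lysines of the helix, differed by -0.09 ± 0.07 and 0.01 ± 0.07. Plod1 read 311.7, 305.7, 383.3, 298.2 and 356.1 against 320, 321.1, 296.2, 307.6 and 294.7, and its difference was -0.04 without normal replicate 3, the highest array. The prolyl 3-hydroxylase family members P3h1, P3h3 and P3h4 differed by -0.03 ± 0.07, -0.06 ± 0.08 and -0.05 ± 0.08.

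Lox, the lysyl oxidase that starts collagen and elastin cross-links, had the most negative log2 difference of the 32 genes. Its signals were 311.8, 313, 345.7, 245.6 and 268.4 in the normal group and 251.9, 254.3, 225.1, 236.3 and 218.8 in the hyperinsulinemic group. Normal replicate 4 was as low as the hyperinsulinemic arrays, and 3 of these were below it. The difference was -0.30 ± 0.09, a ratio of 0.814 (limma, adjusted p = 0.697, with an interval from -0.48 to -0.11). A dimmer probe set of the same record, below the filter, read 58.1 ± 12.1 and 46.9 ± 3.12. Relative to Col1a1 within each array, Lox was lower by 0.13 on the log2 scale, within the spread of the arrays (exact two-sided permutation test, p = 0.429; adjusted p = 0.429 over 2 ratios). Single arrays moved this ratio, to -0.029 without normal replicate 3 and -0.23 without normal replicate 4. It was also nearer 0 without normal replicate 1 (-0.081) and hyperinsulinemic replicate 10 (-0.079), and -0.20 without hyperinsulinemic replicate 7. Across arrays Lox and Col1a1 had r = -0.56 and rho = -0.52, which did not pass (exact permutation p = 0.129 and 0.170, adjusted over 5 pairs 0.161 and 0.213). Without the 2 arrays named above r was -0.25. Within the normal group r was -0.80, and within the hyperinsulinemic group it was -0.11. Loxl1, a lysyl oxidase tied to elastic fibres, read 197.5, 251.8, 206.2, 261 and 149.6 against 155, 171.5, 184.4, 179.2 and 278. Its lowest array was normal and its highest hyperinsulinemic, and the difference of -0.13 ± 0.15 was 0.0089 without the 2 arrays with the most Alb. Single arrays moved it to -0.26 (without hyperinsulinemic replicate 10) and -0.24 (without normal replicate 5). It was -0.058, -0.065 and -0.070 without normal replicate 4, hyperinsulinemic replicate 6 and normal replicate 2.

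The chaperone and the propeptide enhancer had differences of opposite sign, both within their standard errors. For Serpinh1 the signals were 1864, 1882, 1811, 1942 and 1861 in the normal group and 2170, 1918, 1829, 1844 and 1893 in the hyperinsulinemic group. Replicate 6 was the highest, and the difference was 0.04 ± 0.05 with all arrays and -0.00058 without it. Serpinh1 and Col1a1 had r = 0.58 and rho = 0.67 over arrays (exact permutation p = 0.0513 and 0.0302, adjusted 0.0855 and 0.0503), and r was 0.63 without the 2 arrays named above. Pcolce, which helps to cut the C-propeptide of fibrillar procollagen, read 589.3, 629, 631.2, 598.2 and 686.7 against 636.9, 639.8, 603.6, 574.8 and 663.6, with wide overlap and a difference of -0.01 ± 0.06.

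**Figure D3:**
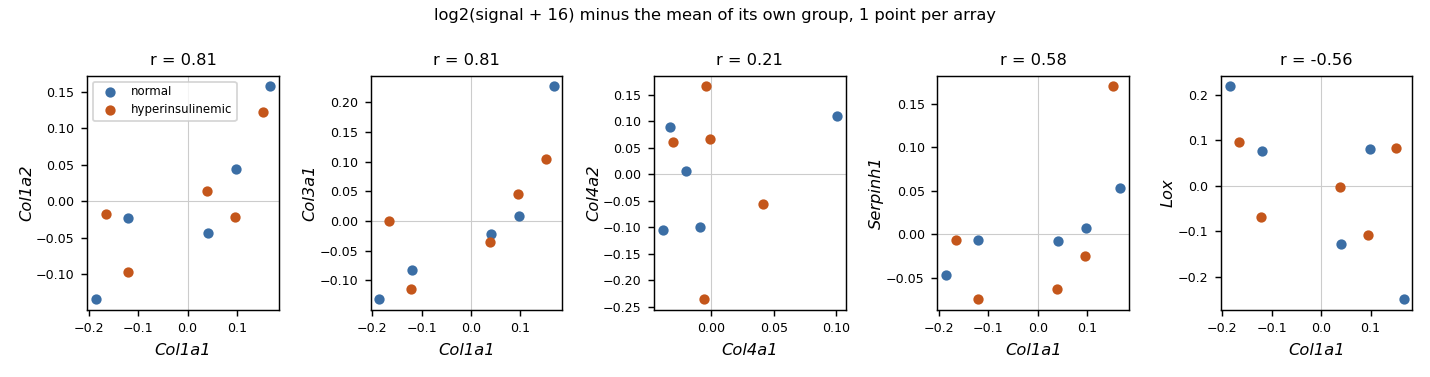
Group-centred log2(signal + 16) of 5 gene pairs over the 10 arrays (blue normal, orange hyperinsulinemic), with Pearson's r above each panel. Col1a1 lines up with Col1a2 and Col3a1 (r = 0.81 each), and Col4a1 spans a narrow range against Col4a2 (r = 0.21).

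Array by array, the lower signals were spread unevenly. The median deviation of the 32 genes from their means over normal arrays was -0.01, -0.04, -0.15, -0.07 and -0.07 on hyperinsulinemic replicates 6 to 10. On normal replicates 1 to 5 it was -0.07, 0.02, -0.01, 0.01 and 0.04, so that the groups overlapped through normal replicate 1, the array with the highest adrenal cortex sum. On hyperinsulinemic replicate 8, 29 of 32 genes were below their normal means, and on replicates 6 and 7, 18 of 32 were. On normal replicate 1 the count was 24 of 32, above the 20 of hyperinsulinemic replicate 10. Enzymes and helpers were lowest on hyperinsulinemic replicates 8, 9 and 10, at -0.15, -0.15 and -0.11, against -0.05 to 0.03 on all others. The 6 tested fibrillar genes were lowest on replicate 8, at -0.26, and next on replicate 7, at -0.12. Leaving out 1 array at a time gave 23 to 28 genes with lower means and medians from -0.08 to -0.04, the weakest without hyperinsulinemic replicate 8.

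**Figure D4:**
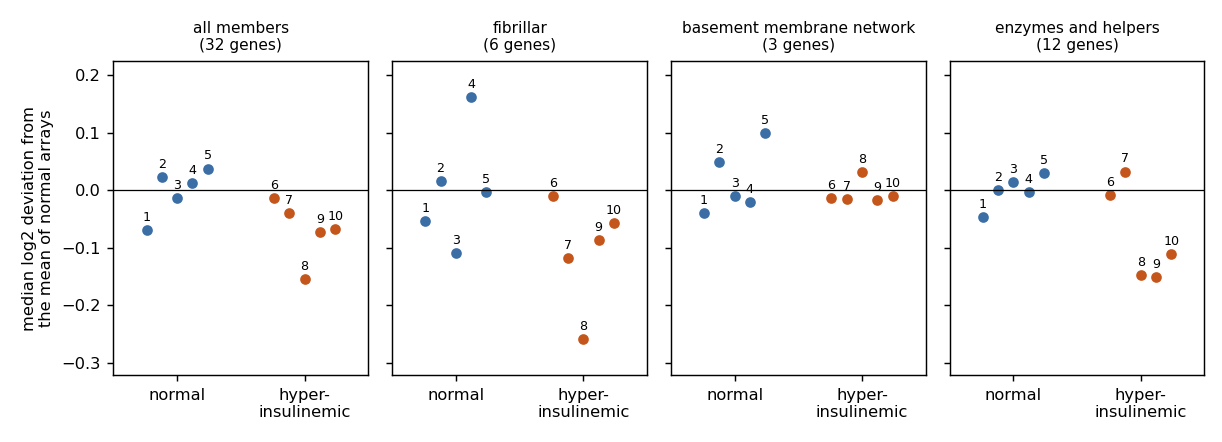
Median log2 deviation from the mean of normal arrays (y axis) over all 32 tested genes and 3 subsets, 1 point per array with its replicate number. Hyperinsulinemic replicate 8 is lowest over all genes (-0.15), and normal replicate 1 lies at -0.07 among the hyperinsulinemic arrays.

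**Figure D5:**
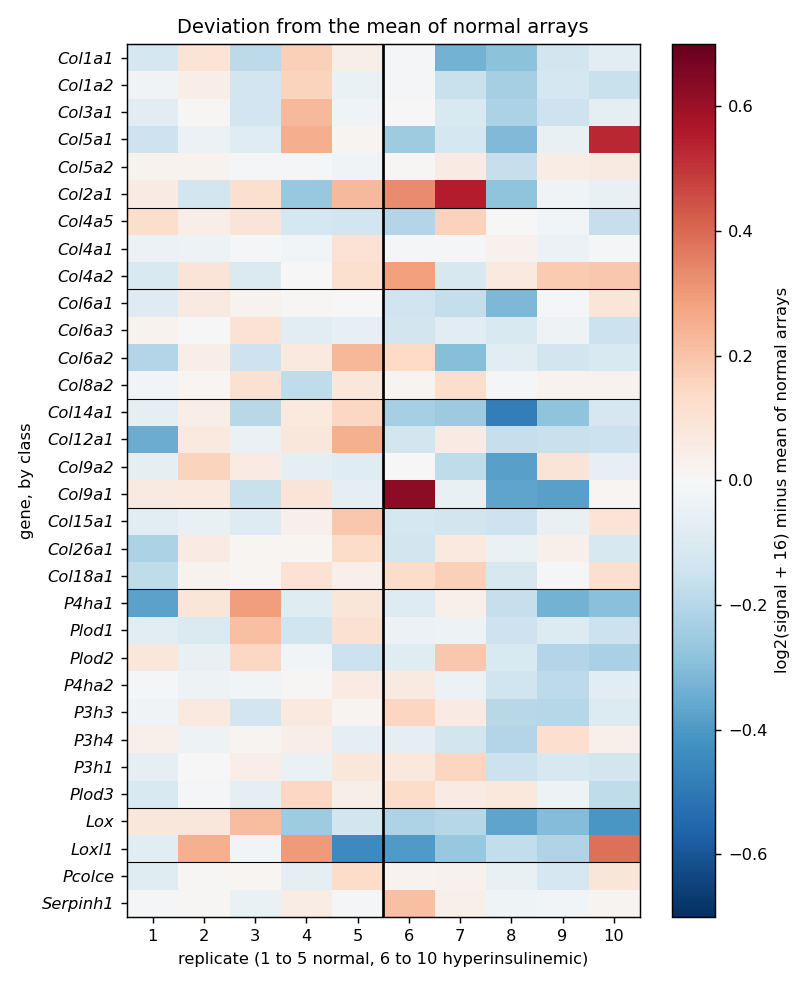
Deviation of each tested gene (rows, by class) on each array (columns, replicates 1 to 5 normal and 6 to 10 hyperinsulinemic) from its mean over normal arrays, in log2 units, blue for lower. The columns of replicates 8 and 9 are blue in most rows (29 and 26 of 32). Deviations are below 0 on all 5 hyperinsulinemic arrays for Col14a1, Lox, Col1a1, Col1a2, Col3a1, Col6a3 and Plod1, some of them close to 0.

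Stromal marker genes had lower summed signals in the same group as the interstitial collagens. In a list of 8 fibroblast and stroma genes, each by its brightest probe set, 7 were tested and 0 were at 0. All 7 had lower means in the hyperinsulinemic group, with a median log2 difference of -0.15. The summed signal of the list was 4162 to 4617 in the normal group and 3583 to 4016 in the hyperinsulinemic group, with no overlap. A further Thy1 probe set, not counted there, was not lower. It read 290.2, 272.7, 274.2, 231.9 and 270.4 in the normal group and 219.7, 302.1, 262, 266.4 and 311.9 in the hyperinsulinemic group. Of the 9 tested kidney genes 6 had higher and 3 lower means. Their sums were 9419 to 10358 in the normal group and 10310 to 11140 in the hyperinsulinemic group, with a narrow overlap. Aqp2, a collecting duct gene within these sums, ran from 1015 to 1553 and from 1574 to 1957, with no overlap. The sums were not computed without Aqp2, so they are no measure of kidney content as a whole. In these bulk samples fewer stromal cells, a larger share of other tissue and less RNA per cell cannot be told apart. Of 5 tested smooth muscle and mesangium genes 4 had lower means and 1, Des, a higher mean. The sums of this list, 1558 to 2256 and 1400 to 1857, overlapped. The 2 genes of it with an unadjusted p under 0.05 (limma) had opposite signs. These were Tagln at -0.42 ± 0.12 and Des at 0.32 ± 0.09 (limma, adjusted p = 0.697 and 0.728). Markers of liver had higher means in 6 of 7 tested, with sums of 1300 to 2863 and 1612 to 5523 and 0 at 0. With the mean of the tested liver markers as a covariate, the differences of Col1a1, Col1a2 and Col3a1 were -0.26, -0.22 and -0.20 (limma, adjusted p = 0.959, 0.770 and 0.959). With the same covariate other differences were nearer 0, at -0.063 for Col6a1, -0.071 for Loxl1, -0.038 for Col15a1, 0.065 for Col4a2 and 0.032 for Col18a1. Those of Col4a5, Serpinh1 and Pcolce changed sign, to 0.038, -0.029 and 0.019. The part of stromal or liver content in the collagen values was not tested.

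Other genes of collagen folding, processing and turnover also had mostly lower means. Of a list of 42 that are not among the 41 genes above, 30 were on the array and 25 were tested. Of these 18 had lower and 7 higher means, with a median of -0.07; 0 passed in either direction (limma), and 3 reached an unadjusted p under 0.05, all lower, against 5.17% of all genes and 2.77% lower. Lum, a proteoglycan that spaces collagen fibrils, was 359.2, 414.4, 331.8, 404.1 and 274.3 in the normal group and 181.5, 257.3, 227.5, 242.5 and 213.6 in the other, and the groups did not overlap (-0.63 ± 0.11, limma adjusted p = 0.132). It was followed by the proteoglycan gene Dcn (-0.15 ± 0.05), the metalloproteinase inhibitor genes Timp2 (-0.22 ± 0.10) and Timp3 (-0.10 ± 0.05), the collagen-degrading protease gene Ctsk (-0.22 ± 0.11) and the collagen receptor gene Ddr2 (-0.12 ± 0.07). Lum and Dcn are in the stromal list too. The folding partners P4hb and Ppib differed by 0.03 ± 0.05 and 0.05 ± 0.09, and Bmp1, the procollagen C-proteinase, by -0.0034 ± 0.07.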

How the data were processed

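The authors deposited 1 linear intensity per probe set and array, made with MAS5 per the submitters' processing notes; the version, settings and any genome build are not given in the sources used here. Values were used as deposited. The platform annotation gave 1 symbol for 12789 probe sets and several for 312, and 2822 were unnamed here. All 55 member probe sets matched a RefSeq gene by Entrez identifier.

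The 57 control probe sets were left out, signals were transformed as log2(signal + 16), and groups were compared over 9601 probe sets with limma 3.58.1 in R 4.3.3 (lmFit, then eBayes with trend). Tests were two-sided; p-values were adjusted by Benjamini-Hochberg over all tested probe sets, and 0.05 was the threshold. Fold changes on this scale understate those of dim genes. Ratios and correlations had exact permutation tests; with 5 arrays in each group the smallest possible p of a ratio is 0.00794. The code was tested on simulated data.

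A gene was represented by its brightest tested probe set (7267 genes). Signals on every array were printed for Col1a1, Col1a2, Col3a1, Col4a1, Col4a2, Lox, Serpinh1, P4ha1 and Plod2 and for the 2 genes with the smallest p in each class; the 6 genes with the smallest p were named from the pathway list. The array values of P4ha2 and Lum, and P4hb, Ppib and Bmp1, were added after their values had been seen. The members and lists were chosen with earlier results of these data known. Alternatives covered pseudocounts, filters, normalization, variance model, weights, covariates and left-out arrays. Plots used matplotlib 3.10.9 under Python 3.11.15.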

Additional observations from a re-analysis of the deposited data

Results flagged for a closer look

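Of 64 sets of 5 arrays (32 genes in 2 groups), 5 had an array far from the other 4 on the log2 scale, by Dixon's criterion at 0.71 of the range; chance flags about 1 in 20 such sets. Col4a1 was 2938 on normal replicate 5, against 2722 for the next array. Serpinh1 was 2170 on hyperinsulinemic replicate 6, against 1918 for the next. Col5a2 was 1178 on hyperinsulinemic replicate 8, below 1330 for the next. Col12a1 was 687.2 and Col8a2 620.7 on hyperinsulinemic replicate 7, against 600.9 and 579.9 for the next arrays.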

How the results depend on the processing

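Under all alternatives run, 0 member probe sets passed in limma (2 to 5 genes had an unadjusted p under 0.05), and the count of genes with lower means (log2 scale) and their median kept their direction, at 21 of 28 genes with the stricter filter (60th percentile), 29 of 41 without a filter and 24 of 32 with the liver covariate. The median was -0.09 with array weights and -0.06 without a filter. Over all probe sets the count that passed was 1, against 5 without a filter, 2 with arrays shifted to a common median, 4 with array weights, 0 without the intensity trend, 0 with the liver covariate, 0 without the 2 arrays with the most Alb, and 0 to 4 when 1 array was left out. Of 398 values of the named genes under alternatives, 388 kept their direction and stayed short of the threshold. The 10 that changed sign were all close to 0: Col4a1 with array weights (0.0012) and without normal replicate 5, Col4a5 with the liver covariate (0.038), Serpinh1 with that covariate (-0.029) and without hyperinsulinemic replicate 6, Loxl1 without the 2 arrays with the most Alb (0.0089), and Pcolce with the liver covariate (0.019) and without normal replicate 5 or hyperinsulinemic replicates 8 or 9. With 1 array left out, Col4a1 ran from -0.020 to 0.016, Pcolce from -0.029 to 0.026 and Serpinh1 from -0.00058 to 0.061. The causes were not tested. The ratio of Col4a3 to Col4a1 had been planned and was not run, since Col4a3 was not analysed here. No paired analysis was possible because the groups share no replicate numbers.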
